A study of Mus musculus with 84 samples.

Results

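The cytochrome P450 genes were described by the histone marks at their promoters in mouse adipocyte nuclei. They were taken by symbol, among protein-coding GENCODE genes on build GRCm38, where the name is Cyp followed by a family number, subfamily letters and a gene number, which gave 99 of 21851 genes. The rule used symbols only, though it was chosen with earlier results of these data known. P450s named otherwise, such as Cyp51, Ptgis and Tbxas1, were not members. A promoter was the window of 2000 bp on either side of any protein-coding transcription start of the gene, and it counted as marked in a library once a peak reached into it by 1 bp or more.

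CUT&Tag was used, where antibodies to a mark bring an enzyme that cuts and tags the DNA beside it, to ask which marks differ in obesity and still differ after weight loss. The 84 libraries came from epididymal fat of male AdipoERCre x NuTRAP mice, on a background given as C576BL6 in the labels and as C57BL/N in the methods of the study. Tamoxifen had been given to all groups, controls included, before the diets began, so that Cre acting in adipocytes tagged their nuclei with biotin for pull-down. A cell that became an adipocyte later would not carry the tag. In the 12-week cohort, C mice (18 weeks old, chow) were the controls of H mice (18 weeks old, 12 weeks of high-fat diet), and CC_s mice (26 weeks old, chow) were the controls of HC mice (26 weeks old, 12 weeks of high-fat diet and then 8 weeks of chow). In the 25-week cohort, CC_l mice (31 weeks old, chow) were the controls of HH mice (31 weeks old, 25 weeks of high-fat diet), and CCC mice (39 weeks old, chow) were the controls of HHC mice (39 weeks old, 25 weeks of high-fat diet and then 8 weeks of chow). Per the methods of the study, controls ate a low-fat chow during the high-fat phase. Both arms then received a different chow in the weight-loss period, so CC_s and CCC mice also changed diet. Each mark had 2 or 3 libraries per group. The totals were 21 libraries with H3K4me3, 20 with H3K27me3, 21 with H3K27ac and 22 with H3K4me1. The libraries of the marks with 1 replicate number in a group came from the same fat depot, so the marks are not independent of each other.

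Cytochrome P450s are haem enzymes that insert an oxygen atom into lipids, steroids, vitamins and foreign compounds, mostly in the endoplasmic reticulum, with electrons passed on by a reductase. The large CYP2 and CYP3 families are best known from the liver, where they clear drugs, while other members make or break down steroid hormones, bile acids, vitamin D and retinoic acid. Cyp2e1, which oxidises ethanol, acetone and fatty acids, is also expressed in fat. Of the marks, H3K4me3 is typical of promoters in use and H3K27ac of promoters and enhancers in use. H3K4me1 is typical of enhancers, and H3K27me3 of genes kept silent by polycomb complexes.

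The promoters of 5 members are shown because the results below turn on them, as the 250 bases before the RefSeq start in GRCm38.p6, read along the gene. They are Cyp2e1 at chr7:140763569-140763818 (plus strand), Cyp2f2 at chr7:27119705-27119954 (plus strand), Cyp20a1 at chr1:60343050-60343299 (plus strand), Cyp4b1 at chr4:115647722-115647971 (minus strand) and Cyp1a1 at chr9:57697363-57697612 (plus strand). Cyp4b1 and Cyp1a1 were chosen after their values were seen. The runs lie before the RefSeq start, but longer GENCODE transcripts of a gene can begin within them or further upstream. Capitals mark matches on either strand to 6 motifs. The TATA box was searched as TATAAA and the CCAAT box by the letters of its name. The GC box was searched as GGGCGG, and the core of the xenobiotic response element as GCGTG. The half-site of nuclear receptors was searched as AGGTCA, and a site like that of C/EBP factors as TTGCNNAA.
Cyp2e1: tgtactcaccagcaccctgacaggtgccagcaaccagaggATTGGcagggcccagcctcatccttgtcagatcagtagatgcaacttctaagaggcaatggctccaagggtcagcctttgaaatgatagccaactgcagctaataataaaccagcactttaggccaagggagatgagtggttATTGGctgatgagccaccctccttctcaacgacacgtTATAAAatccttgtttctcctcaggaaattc
Cyp2f2: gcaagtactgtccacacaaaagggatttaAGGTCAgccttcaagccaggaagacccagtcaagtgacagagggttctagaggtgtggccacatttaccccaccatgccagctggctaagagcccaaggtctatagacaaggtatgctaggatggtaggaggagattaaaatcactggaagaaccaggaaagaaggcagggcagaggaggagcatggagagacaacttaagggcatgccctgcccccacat
Cyp20a1: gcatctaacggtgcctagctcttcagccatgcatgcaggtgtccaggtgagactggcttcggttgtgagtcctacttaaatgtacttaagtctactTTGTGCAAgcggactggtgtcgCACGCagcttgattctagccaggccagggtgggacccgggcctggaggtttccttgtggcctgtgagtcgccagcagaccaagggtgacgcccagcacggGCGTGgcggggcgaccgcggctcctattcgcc
Cyp4b1: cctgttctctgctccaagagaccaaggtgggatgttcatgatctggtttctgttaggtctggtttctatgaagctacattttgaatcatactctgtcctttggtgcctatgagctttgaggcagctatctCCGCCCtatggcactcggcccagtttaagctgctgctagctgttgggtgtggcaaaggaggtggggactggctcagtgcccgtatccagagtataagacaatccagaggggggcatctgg
Cyp1a1: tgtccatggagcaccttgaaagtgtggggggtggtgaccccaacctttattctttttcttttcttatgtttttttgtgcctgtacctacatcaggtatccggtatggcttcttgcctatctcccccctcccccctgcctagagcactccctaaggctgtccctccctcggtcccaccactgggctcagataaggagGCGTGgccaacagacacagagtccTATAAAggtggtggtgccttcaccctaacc

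Cyp2e1 held a TATA box at position -31 from the start and CCAAT on the reverse strand at -68 and -210. Cyp1a1, a textbook target of the aryl hydrocarbon receptor, held a TATA box at -30 and GCGTG at -54. Cyp20a1, a P450 of unknown substrate, held GCGTG at -32 and, on the reverse strand, at -132, and the C/EBP-like letters on the reverse strand at -154. Cyp2f2 held AGGTCA at -221 and Cyp4b1 the GC box on the reverse strand at -120. Positions are those of the first base of the match, and a match describes the letters only.

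The P450 promoters carried few active marks in chow-fed controls. A mark was assigned to a promoter when at least 50% of the control libraries of that mark had a peak there. H3K4me3 was assigned to 18 members (18.2%), compared with 12936 of all 21851 promoters (59.2%). H3K27ac was assigned to 12 members (12.1%), compared with 8867 of all (40.6%), and H3K4me1 to 8 members (8.08%), compared with 3762 (17.2%). H3K27me3 was assigned to 11 members (11.1%), compared with 3612 (16.5%). None of the 4 marks was assigned to 72 members (72.7%), whereas this held for 6324 of all promoters (28.9%). No peak of any mark was found in any library at 32 members (32.3%) and at 2612 of all promoters (12.0%), and these members included Cyp7a1, which starts the classical route of bile acid synthesis, the drug-metabolising Cyp2b10 and Cyp3a11, and the adrenal hydroxylase Cyp21a1. A promoter without a peak did not reach the top 1% of signal blocks of a library, which does not show that it lacks the mark.

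**Figure D1:**
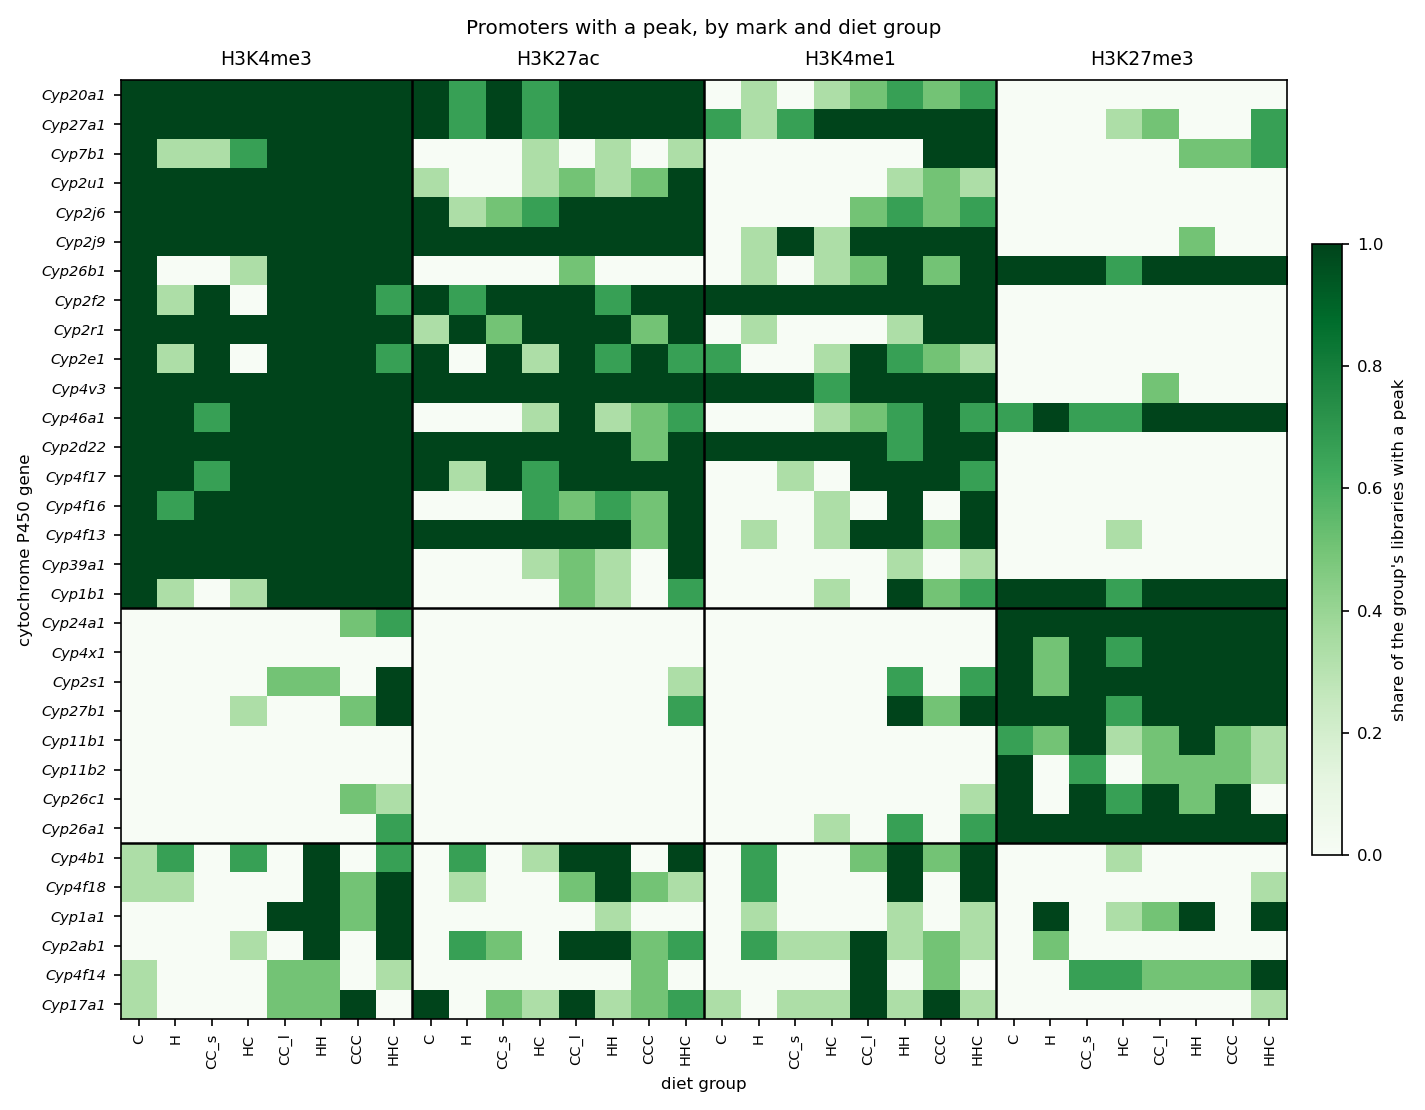
Share of libraries of each diet group (columns) with a peak at the promoter of each named P450 gene (rows), 1 panel per mark, from 0 (no library) to 1 (every library). Cyp20a1, Cyp2j9 and Cyp4f13 carried H3K4me3 in every group, Cyp2e1 had H3K4me3 and H3K27ac peaks in every control library but not in all diet libraries, and Cyp26c1 had the H3K27me3 peak in 10 of 10 control and 3 of 10 diet libraries.

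Both H3K4me3 and H3K27ac were assigned to 11 members, namely Cyp20a1, Cyp27a1, Cyp2j6, Cyp2j9, Cyp2f2, Cyp2r1, Cyp2e1, Cyp4v3, Cyp2d22, Cyp4f17 and Cyp4f13. By role, these comprised the sterol hydroxylase Cyp27a1, Cyp2r1, which makes the circulating form of vitamin D, the arachidonic acid epoxygenases Cyp2j6 and Cyp2j9, and the fatty acid hydroxylases Cyp4v3, Cyp4f13 and Cyp4f17, beside Cyp2e1, Cyp2f2 and Cyp2d22, which oxidise foreign compounds. H3K4me3 without H3K27ac was assigned to 7 members (7.07%, compared with 19.2% of all promoters), namely Cyp7b1, Cyp2u1, Cyp26b1, Cyp46a1, Cyp4f16, Cyp39a1 and Cyp1b1. The 3 of these that also carried H3K27me3 were Cyp26b1, which degrades retinoic acid, the brain cholesterol hydroxylase Cyp46a1, and Cyp1b1, which oxidises oestradiol. The steroid hydroxylase Cyp17a1 was the one member with H3K27ac but without H3K4me3 in most controls, with peaks in 7 of 9 H3K27ac and 4 of 10 H3K4me3 control libraries.

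H3K27me3 without H3K4me3 was assigned to 8 members (8.08%, compared with 10.8% of all promoters). They were Cyp24a1 and Cyp27b1, which inactivate and activate vitamin D, Cyp11b1 and Cyp11b2, which make corticosterone and aldosterone, Cyp26a1 and Cyp26c1, which degrade retinoic acid, and Cyp4x1 and Cyp2s1. Hence all 3 Cyp26 genes carried H3K27me3. The window of Cyp24a1 also holds a start of Pfdn4, as that of Cyp39a1 does of Slc25a27 and that of Cyp2w1 of Cox19, so peaks there cannot be assigned to 1 gene.

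The unmarked members were largely those of the tandem arrays. Members whose gene bodies lay within 200 kb of each other formed 12 clusters that held 75 of the 99, while 24 stood alone. H3K4me3 was assigned to 11 of the 24 that stood alone and to 7 of the 75 in clusters. The largest array, 14 Cyp2c genes over 1180 kb of chromosome 19, had no H3K4me3, H3K27ac or H3K4me1 peak at any promoter in any library, and 10 of its genes had no peak of any mark. The array of 8 Cyp3a genes on chromosome 5 likewise had no peak of these 3 marks. Of the other 10 arrays, 5 held no gene with H3K4me3 in most controls, among them 10 genes from Cyp4x1 to Cyp4b1 on chromosome 4 and 5 genes from Cyp2s1 to Cyp2a4 on chromosome 7. The other 5 held 1 or 2 such genes, which were Cyp2d22 of 8 Cyp2d genes, Cyp2j6 and Cyp2j9 of 8 Cyp2j genes, Cyp2f2 of 8 genes of a second Cyp2a and Cyp2b array on chromosome 7, and Cyp4f17, Cyp4f16 and Cyp4f13 in 2 Cyp4f arrays on chromosome 17. By family, H3K4me3 was assigned to 5 of 47 CYP2 genes, 4 of 20 CYP4 genes, 0 of 9 CYP3 genes, 0 of 6 steroidogenic genes and 5 of 9 genes of cholesterol, bile acid and vitamin D turnover. Genes of 1 array share sequence, so reads there may map to several copies.

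Promoter sequence was described from 250 bases before to 50 after each of the 139 start sites of the members. The ratio of observed to expected CpG dinucleotides had a median of 0.181 over the members and 0.564 over all 41438 start sites. It was 0.427 for the 25 start sites of members with H3K4me3 alone, 0.675 for the 8 with H3K4me3 and H3K27me3, 0.412 for the 10 with H3K27me3 alone, and 0.138 for the 96 with neither, of which the highest reached 0.443. Cyp2e1 and Cyp2f2 lay low among the H3K4me3-marked members, with a highest ratio of 0.325 and of 0.0997, while that of Cyp20a1 was 0.774. Also below Cyp2e1 were Cyp4f16 (0.0879), Cyp2j6 (0.216), Cyp2j9 (0.229) and Cyp4f13 (0.282). Cyp4f16 had H3K4me3 in 10 of 11 diet libraries, and Cyp2j6, Cyp2j9 and Cyp4f13 in 11 of 11. The TATA box was found at 32.4% of member start sites and at 11.8% of all, and the GC box at 23% and 45.4%. Among start sites of members with neither mark the TATA box was found at 41.7% and the GC box at 8.33%, compared with 8% and 56% for members with H3K4me3 alone. CCAAT was found at 51.8% of member start sites and 36.8% of all, AGGTCA at 23% and 14%, TTGCNNAA at 18.7% and 9.99%, and GCGTG at 24.5% and 38%. These are descriptions without a test, since start sites of 1 gene overlap and copies in an array are related.

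**Figure D2:**
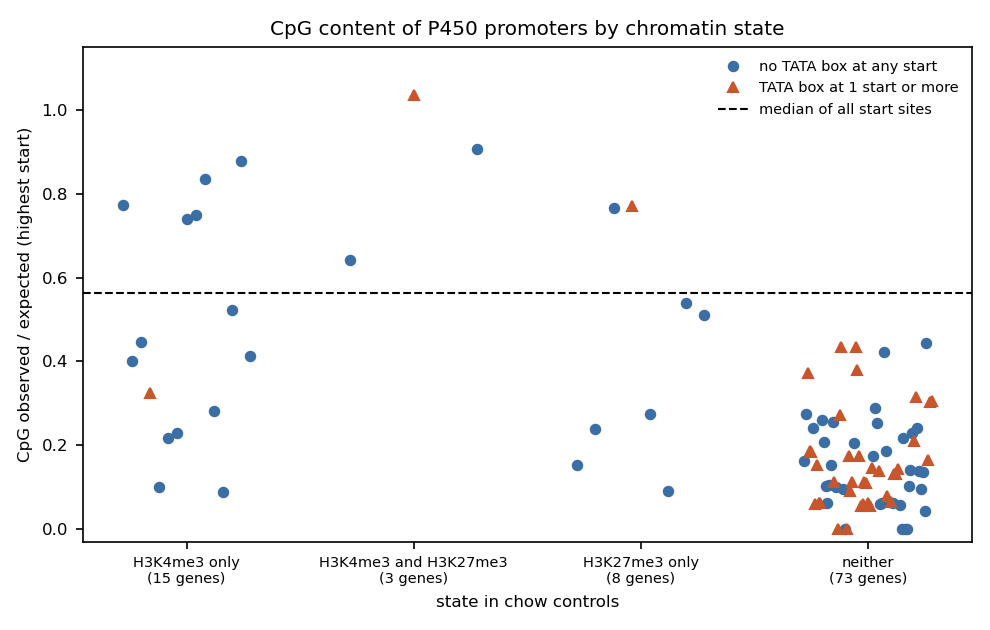
Observed over expected CpG (vertical axis, no unit) at the highest start site of each P450 gene (1 point per gene), grouped by the marks of the gene in controls. Triangles are genes with a TATA box at 1 start or more, the dashed line is the median of all start sites (0.564), and the 73 genes with neither H3K4me3 nor H3K27me3 lie at or below 0.443.

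The depth of the libraries bears on every comparison below. Read totals are not held by the peak lists, so the depth in reads is unknown. The number of peaks per library ranged from 11249 to 41976 for H3K4me3, from 12174 to 41989 for H3K27ac, from 21809 to 46397 for H3K27me3 and from 14486 to 40682 for H3K4me1. The H3K27ac list of the control CCC replicate 3 was short, with 14917 peaks and 17.7% of promoters marked. CCC replicate 1 had 50.8% marked and the HHC libraries 52.3% to 53.6%. H3K4me3 lists of the 25-week cohort were longer, with 32225 to 41976 peaks compared with 11249 to 28592 in the 12-week cohort, and cohort cannot be told apart from library preparation. Between 12 and 30 members were marked by H3K4me3 per library. Peaks were found at all 8 adipocyte marker genes in every H3K4me3 library except H replicate 2 (6 of 8), HC replicate 3 (6 of 8) and HHC replicate 3 (5 of 8), and in every H3K27ac library except H replicate 2 (7), HC replicate 3 (6), HH replicate 1 (5) and HHC replicate 3 (5). The H3K4me3 peaks at 8 macrophage markers numbered 0 to 3 per control library. Among diet libraries, replicates in order, H had 7, 7 and 0, HC had 0, 1 and 5, HH had 8 and 7, and HHC had 8, 7 and 7. Of 6 endothelial markers, C had 1, 3 and 3 marked and H had 5, 4 and 0, CC_s had 0 in all and HC had 2, 1 and 4, CC_l had 4 and 2 and HH had 5 and 5, and CCC had 1 and 1 and HHC had 3, 4 and 5. Endothelial markers were thus more often marked in diet libraries too, with H3K4me3 at Cdh5 in 3 of 10 control and 9 of 11 diet libraries and at Tek in 1 of 10 and 7 of 11. For 6 markers each, the counts in control and diet libraries were 0 to 3 and 0 to 2 for mesothelial cells, 0 to 5 and 0 to 5 for progenitors, and 0 to 2 and 0 to 4 for epithelial cells.

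To compare libraries of unequal length, each promoter was given a rank within its library. The rank was 0 without a peak, and otherwise the percentage of all promoters whose highest peak was lower. Obese mice (H and HH) were compared with C and CC_l, and mice after weight loss (HC and HHC) with CC_s and CCC, by an exact permutation test within cohorts, two-sided, with Benjamini-Hochberg adjustment over all promoters that had a peak. No member and no other promoter passed an adjusted p of 0.05 for any mark. In the obese comparison the smallest adjusted p over all promoters was 0.313 (H3K4me3), 0.386 (H3K27me3), 0.451 (H3K27ac) and 0.684 (H3K4me1). After weight loss it was 0.519, 0.598, 0.650 and 0.623, in the same order. With these group sizes the smallest exact p was 0.0167 in the obese comparison of H3K4me3 and H3K27me3, 0.01 for H3K27ac after weight loss and 0.005 otherwise, and between 10% and 33.3% of all tested promoters would have to reach it for any to pass. The differences below are therefore values at an unadjusted p, which measure the spread between the libraries labelled as biological replicates.

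Cyp2e1 (ENSMUSG00000025479.9, chr7:140763739-140774987, plus strand) had lower H3K4me3 and H3K27ac ranks in diet mice than in their controls. The study itself uses this promoter as an example, so it is not an independent choice. Its H3K4me3 rank was 63.1, 63.5 and 59.8 in C, and 45.3, 0 and 0 in H. It was 56.6, 60.5 and 50.2 in CC_s, and 0, 0 and 0 in HC. In the 25-week cohort it was 73.6 and 69.4 in CC_l and 43.3 and 47.2 in HH, then 58.7 and 70 in CCC and 39.8, 50 and 0 in HHC. Every diet library therefore lay below every library of its age-matched controls in all 4 comparisons. In the CC_s libraries 46.4%, 47.9% and 55.3% of promoters carried H3K4me3, replicates in order. The CC_s ranks thus lay near the lowest of marked promoters, and the HC comparison sets low peaks against the assigned 0. The mean difference between obese and control mice was -36.7 percentage points of rank (exact permutation p = 0.0167, adjusted p = 0.313). By cohort it was -47.1 (12-week) and -26.3 (25-week). After weight loss the difference was -45.1 (exact permutation p = 0.01, adjusted p = 0.519), with -55.8 and -34.5 in the cohorts. A difference between the cohorts did not pass the test (exact permutation p = 0.517 and 0.545).

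H3K27ac at Cyp2e1 followed the same order. Its rank was 97.8, 96.9 and 88.2 in C and 0 in all 3 H libraries. It was 76.7 and 82.5 in CC_s, compared with 0, 70.6 and 0 in HC. In the 25-week cohort it was 89.2 and 94 in CC_l and 0, 68.1 and 68.3 in HH, then 84.1 and 99.1 in CCC and 51.6, 75.7 and 0 in HHC. No diet library reached the range of its controls. In CCC replicate 3, 17.7% of promoters carried H3K27ac, so any marked promoter ranked high there. The difference was -70.2 in obese mice (exact permutation p = 0.015, adjusted p = 0.451). In mice after weight loss it was -52.6 (exact permutation p = 0.04, adjusted p = 0.650). The cohort values were -94.3 and -46.2 for obesity and -56.0 and -49.2 for weight loss, and their difference did not pass (exact permutation p = 0.495 and 0.95).

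The treatment field of 4 H3K4me3 libraries of the 25-week cohort names another group than the title used here, and with the groups of that field the Cyp2e1 difference in obesity was -18.9 (exact permutation p = 0.217). HH then had a higher mean rank than CC_l (69.7 and 60.4), so the 25-week difference turned to 9.33, and HHC overlapped CCC. After weight loss the difference was -38.4 (exact permutation p = 0.025). The titles match the names the authors gave the files. The H3K27ac difference after weight loss was the least firm of the 4, since it stayed under an unadjusted p of 0.05 in 4 of 17 alternatives.

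**Figure D3:**
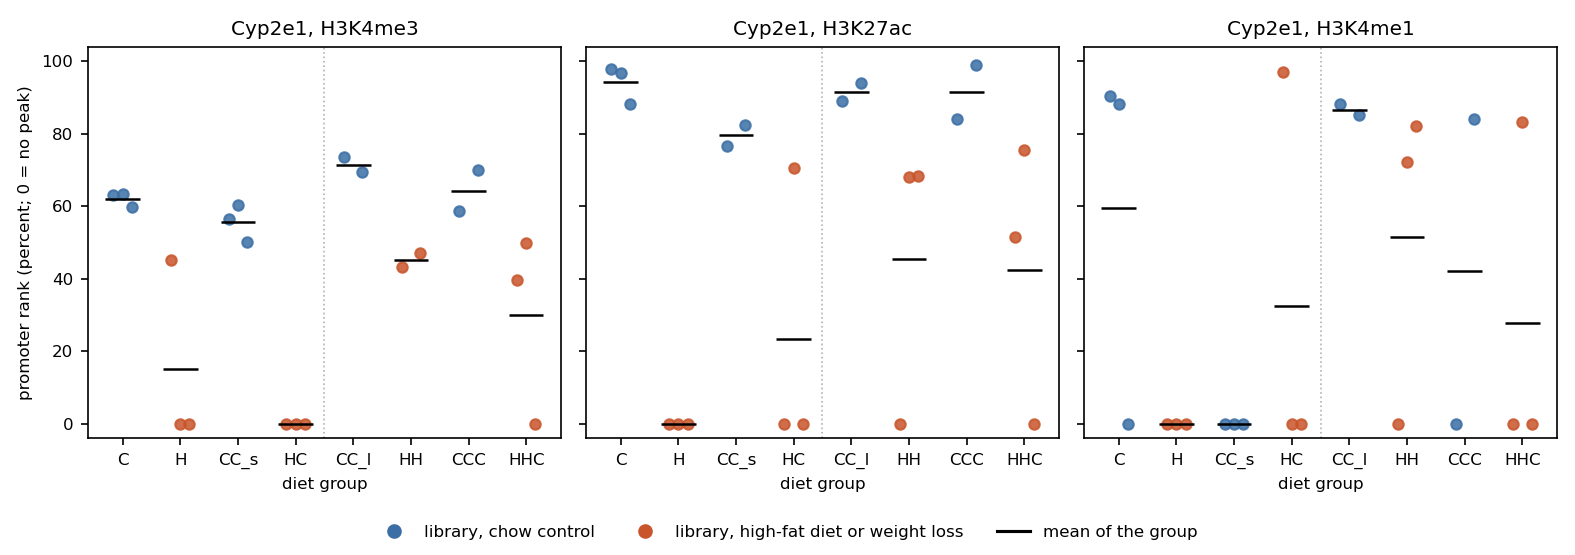
Promoter rank of Cyp2e1 (vertical axis, percent of all promoters with a lower peak, 0 for no peak) in each library (points) by diet group (horizontal axis), 1 panel each for H3K4me3, H3K27ac and H3K4me1, with the group mean as a line. For H3K4me3 and H3K27ac the diet libraries lie below those of their controls in each of the 4 comparisons, and for H3K4me1 they overlap in 3 of them.

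Diet libraries below control libraries in all 4 comparisons were rare. For H3K4me3 this was seen at 25 of 15907 promoters (0.157%) and for H3K27ac at 35 of 14447 (0.242%), Cyp2e1 being the only member in each set. Cyp2e1 was the only 1 of 16352 promoters (0.00612%) in both. This pattern was noticed after the values were seen, and it is a description. No difference passed for H3K4me1, which was marked in 5 of 10 control and 4 of 12 diet libraries, with a difference of -47.4 in obesity (exact permutation p = 0.1). After weight loss it was 9.06 (exact permutation p = 1). H3K27me3 had no peak there in any of 20 libraries.

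The libraries at rank 0 differed in their marker genes. All 3 H3K4me3 libraries that lacked a peak at an adipocyte marker were among the 6 without a Cyp2e1 peak, and all 4 such H3K27ac libraries were among the 7 without one. H replicate 1, without an H3K27ac peak at Cyp2e1, had all 8 adipocyte and 5 macrophage markers marked by H3K27ac. In H replicate 3 and in HC replicates 1 and 2, all 8 adipocyte markers had an H3K4me3 peak, 0, 0 and 1 of the macrophage markers had one, and Cyp2e1 had none. For H3K27ac, H replicate 3 and HC replicate 1 had 8 adipocyte markers, 0 macrophage markers and no peak at Cyp2e1. H replicate 3 had the shortest H3K4me3 list, with 11249 peaks. Without the libraries that lacked an adipocyte marker, a setting added after seeing the data, the H3K4me3 differences were -32.9 and -37.6 (exact permutation p = 0.0167 for each), and those of H3K27ac were -58.9 (exact permutation p = 0.0167) and -36.1 (exact permutation p = 0.0556). For H3K4me3, the libraries kept included H replicate 1, HH replicates 2 and 3 and HHC replicates 1 and 2. These had 7 or 8 of 8 macrophage markers marked, so this setting does not separate out other cells. The part that list length or other cell types played was not tested.

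The peaks at Cyp2e1 spread into the gene. The widest H3K4me3 peak measured 2391 to 7640 bp in the 10 control libraries (median 6253 bp), and its median extent ran from position -412 to 5741.5 bp relative to the start. In all 10 it covered the start itself. Of the 11 diet libraries 5 had a peak, of 911 to 6797 bp (median 5047 bp), and 4 covered the start. The H3K27ac peak measured 3739 to 12244 bp in the 9 controls (median 6655 bp), and 1354 to 8959 bp in the 5 of 12 diet libraries that had one (median 5186 bp). Where a peak remained, its width thus overlapped that of controls.

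**Figure D4:**
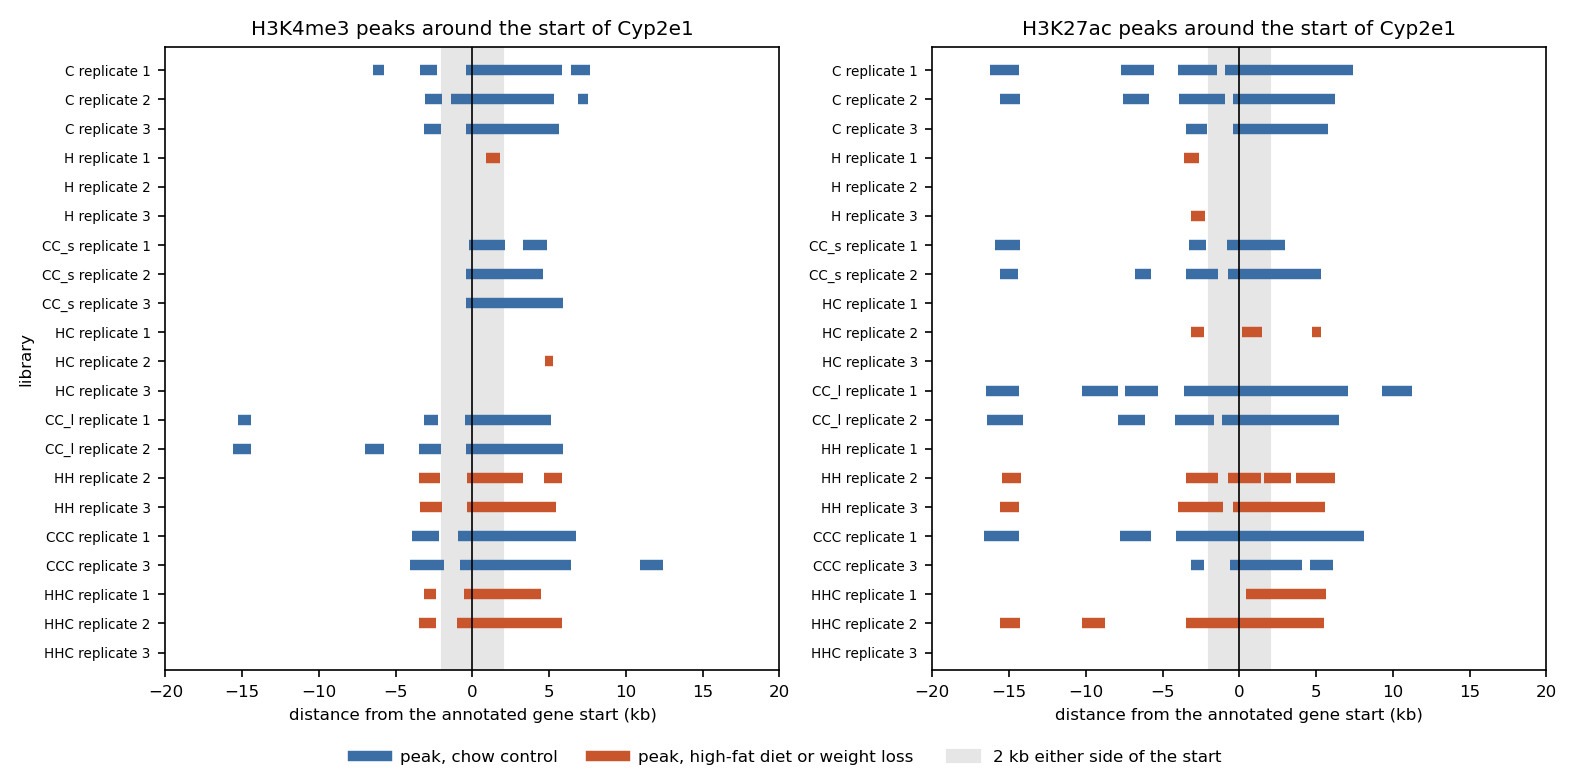
Extent of the H3K4me3 and H3K27ac peaks at Cyp2e1 (horizontal axis, distance from the start site in kb, positive into the gene) in each library (rows, by diet group). Peaks of all control libraries cover the start and reach some kb into the gene, whereas 6 of 11 H3K4me3 and 7 of 12 H3K27ac diet libraries have no peak within 2000 bp of a start.

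Among all promoters, those with ranks most like Cyp2e1 over the 21 H3K4me3 and 21 H3K27ac libraries were Spata3, Cldn24, Col3a1, Vegfa and Chdh, with a mean Spearman correlation of 0.868, 0.853, 0.850, 0.840 and 0.836. The libraries share diet groups and depots, so this is a description. The closest member was Cyp2f2 at 0.768 (place 46), followed by Cyp20a1 at 0.574 (place 376) and Cyp17a1 at 0.557 (place 413).

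Cyp2f2, known for activating naphthalene in the lung (chr7:27119909-27133660, plus strand), had lower H3K4me3 ranks after weight loss. Its H3K4me3 rank was 48, 49.6 and 44.3 in C and 0, 50.1 and 0 in H, so these groups overlapped. HH (44.1 and 46.5) overlapped CC_l (46.4 and 54.4) as well, and the difference in obesity was -17.9 (exact permutation p = 0.15). The rank was 56, 57.5 and 47.1 in CC_s and 0 in all 3 HC libraries, and 55.3 and 49.6 in CCC compared with 39.8, 41.4 and 0 in HHC. The difference after weight loss was -39.5 (exact permutation p = 0.015, adjusted p = 0.519). It fell short with windows of 1000 bp, at -12.7 (exact permutation p = 0.3). The CC_s peaks ran from -1799 to -1112, -2034 to -1095 and -2062 to -1271 bp from the start. None of these reached the start or the bases printed above, whereas the CCC peaks, from -2208 to 292 and -2402 to 925 bp, covered the start. With 46.4%, 47.9% and 55.3% of promoters marked in CC_s, the CC_s ranks were near the lowest of marked promoters. The peak remained for H3K27ac in 10 of 12 diet and 9 of 9 control libraries, and for H3K4me1 in 22 of 22. The median H3K27ac peak was 1391 bp wide in diet and 3432 bp in control libraries, and that of H3K4me1 1617.5 and 4398.5 bp.

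Cyp4b1, which hydroxylates fatty acids and foreign compounds (chr4:115624725-115647723, minus strand), had more peaks in diet mice. H3K4me3 was present in 8 of 11 diet and 1 of 10 control libraries, with H ranks of 62.8, 62.6 and 0, HC ranks of 0, 51 and 64.9, HH ranks of 48.9 and 47.4, and HHC ranks of 0, 39.4 and 40.5. The controls were at 0 except C replicate 3, at 42.8. H3K27ac was present in 9 of 12 diet and 2 of 9 control libraries, and H3K4me1 in 8 of 12 and 2 of 10. The rank difference for H3K4me3 was 37.8 in obesity (exact permutation p = 0.0667). After weight loss it was 32.6 (exact permutation p = 0.08), and neither passed unadjusted. H replicate 3 and HC replicate 1, in which no macrophage marker had an H3K4me3 peak, were also without a Cyp4b1 peak. HHC replicate 1 had none either, with 8 of 8 macrophage markers marked, and HC replicate 2 had a Cyp4b1 peak with 1 marked.

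Cyp4f18, which hydroxylates leukotrienes (chr8:71988482-72009626, minus strand), had no H3K4me1 peak in any of 10 control libraries. Its H3K4me1 rank was 97.2, 95.6 and 0 in H, 63.1, 86 and 79.9 in HH and 80.2, 65.3 and 73.8 in HHC, and 0 in HC. The difference in obesity was 70.3 (exact permutation p = 0.02, adjusted p = 0.684). H3K4me3 was present in 6 of 11 diet and 2 of 10 control libraries. Cyp2ab1 (chr16:20308387-20325404, minus strand) had H3K4me3 in 6 of 11 diet and 0 of 10 control libraries, with ranks of 38.2 and 38.3 in HH, 45, 34.9 and 43.9 in HHC and 46.1 in 1 HC library. With 63.3% and 63.8% of promoters marked by H3K4me3 in the HH libraries, the HH ranks were near the lowest of marked promoters. H3K27ac was present at Cyp2ab1 in 7 of 12 diet and 4 of 9 control libraries, and H3K4me1 in 5 of 12 and 4 of 10. In both HH libraries H3K4me3 was present at Cyp4b1, Cyp4f18 and Cyp2ab1 and at 8 and 7 of the 8 macrophage markers, and the part of other cells in these peaks was not tested.

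**Figure D5:**
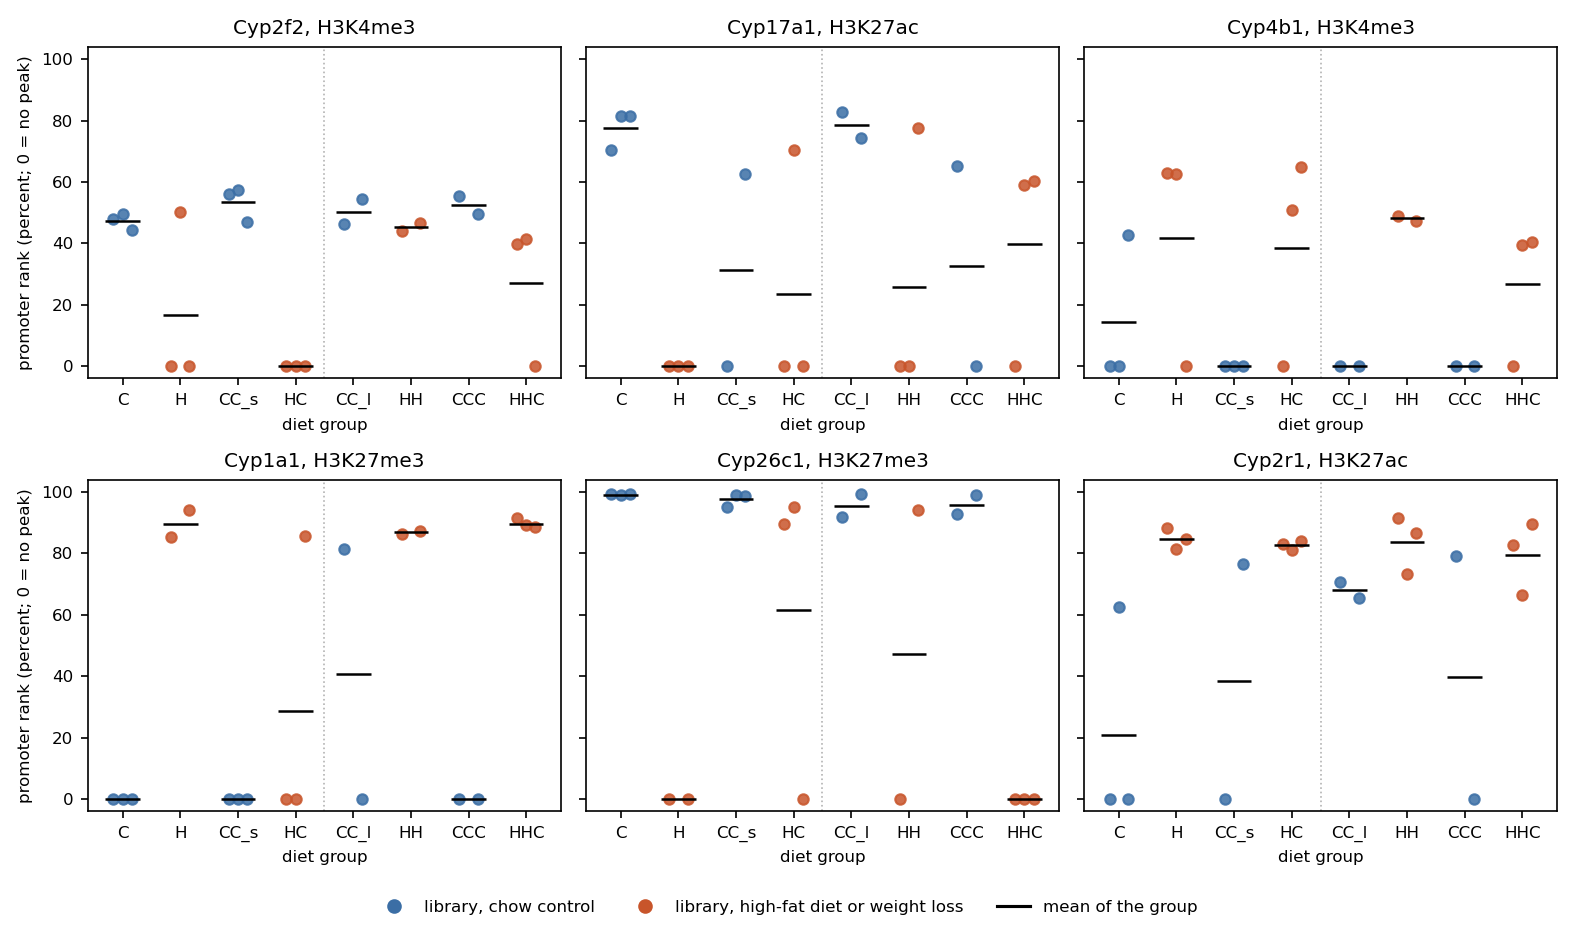
Promoter rank (vertical axis, percent, 0 for no peak) of other named P450 genes in each library (points) by diet group (horizontal axis), 1 panel per gene and mark. Cyp4b1 and Cyp1a1 have more marked libraries in diet groups than in controls, and Cyp26c1 has fewer.

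The hydroxylases of retinoic acid all carried H3K27me3 in controls, and 1 of them had fewer peaks in diet mice. Cyp26c1 (chr19:37685581-37693398, plus strand) had ranks of 99.2, 99.1 and 99.2 in C and 0 and 0 in H. They were 95.2, 98.9 and 98.6 in CC_s and 89.6, 95.2 and 0 in HC. In the 25-week cohort they were 92 and 99.2 in CC_l and 0 and 94.2 in HH, then 92.9 and 98.9 in CCC and 0 in all 3 HHC libraries. A peak was thus present in 10 of 10 control and 3 of 10 diet libraries. The difference was -73.8 in obese mice (exact permutation p = 0.0333). For weight loss it was -65.9 (exact permutation p = 0.01, adjusted p = 0.598). The neighbour Cyp26a1, whose start lies 12217 bp away, had a peak in 20 of 20 libraries, at ranks of 90.5 to 99.3. The widest peak at Cyp26a1 measured 10273 to 19899 bp in controls (median 14278.5 bp) and 719 to 19649 bp in diet mice (median 3902.5 bp), and 1 peak spanned both promoters in 7 of 10 control and 1 of 10 diet libraries. This domain was described after its values were seen, with no test.

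Cyp26b1 (chr6:84571414-84593908, minus strand) had H3K27me3 in 19 of 20 libraries. Its H3K4me3 rank was 44.9, 42.5 and 43.9 in C and 0 in H, and 44.7 and 43 in CC_l compared with 42.1 and 41.3 in HH. The difference in obesity was -23 (exact permutation p = 0.0167, adjusted p = 0.313). These peaks were low in their libraries, and with an equal number of peaks per library the difference was 0. CC_s libraries were without this peak too, so it also varied among controls.

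Cyp1a1 (chr9:57687928-57703824, plus strand) had H3K27me3 in 8 of 10 diet and 1 of 10 control libraries. Its rank was 85.3 and 94 in H and 0 in all C libraries. It was 86.4 and 87.4 in HH compared with 81.6 and 0 in CC_l, and 91.4, 89.3 and 88.5 in HHC compared with 0 in CCC. In HC 1 of 3 libraries was marked, at 85.7, and CC_s had none. In H replicate 1, 14.7% of promoters carried H3K27me3, so the H rank of 85.3 lay at the bottom of the marked promoters there. The difference was 67.9 in obese mice (exact permutation p = 0.0167, adjusted p = 0.386). For weight loss it was 59.1 (exact permutation p = 0.05). With windows of 1000 bp it was 47 in obesity (exact permutation p = 0.0667). The annotated gene starts of Cyp1a1 and Cyp1a2 lie 4225 bp apart. That Cyp1a1 start (57687928) lies upstream of the promoter printed above, and the gene has 2 start sites. Which of their windows held the H3K27me3 peaks was not examined.

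The receptor that induces Cyp1a1, Ahr, was examined with the other partners of the P450s. H3K27me3 at Ahr was present in 9 of 10 control and 2 of 10 diet libraries, with a difference of -90.0 after weight loss (exact permutation p = 0.005, adjusted p = 0.598). In obesity it was -27 (exact permutation p = 0.283), with a peak in 3 of 3 C, 1 of 2 H, 1 of 2 CC_l and 1 of 2 HH libraries. A list of 8 genes held electron donors, Por and cytochrome b5 genes among them, and also the membrane proteins Pgrmc1 and Pgrmc2. All 8 carried H3K4me3 and H3K27ac in controls, as did 8 of 9 haem synthesis genes, the exception being the erythroid Alas2. Of 12 regulators, 7 carried H3K4me3 and 2 (Ahr and its repressor Ahrr) H3K27me3. These lists were pooled with the P450s Cyp51, Ptgis and Tbxas1, which are not partners. The pooled genes at an unadjusted p of 0.05 are given beside the shares of all promoters that were higher and lower. In obesity 2 of 27 were higher and 1 lower for H3K4me3 (2.74% and 5.72% of all), 0 and 0 of 10 for H3K27me3 (1.81% and 5.07%), 0 and 4 of 25 for H3K27ac (2.96% and 5.87%) and 0 and 1 of 24 for H3K4me1 (2.51% and 1.93%). After weight loss 1 of 28 was higher and 1 lower for H3K4me3 (4.07% and 3.39%), 1 and 1 of 12 for H3K27me3 (2.25% and 3.83%), 0 and 0 of 27 for H3K27ac (2.96% and 1.3%) and 0 and 0 of 26 for H3K4me1 (1.38% and 0.955%). The 4 lower for H3K27ac in obesity were Ppara (-54.9, exact permutation p = 0.025), Pparg (-11.7, exact permutation p = 0.03), the haem enzyme Alad (-29.7, exact permutation p = 0.005) and Cyp51, a P450 of cholesterol synthesis (-44.7, exact permutation p = 0.035). At Cyp51 the peak was present in 3 of 3 C and 0 of 3 H libraries, but in 2 of 2 CC_l and 3 of 3 HH libraries. Tbxas1 was 1 of the 2 higher for H3K4me3 in obesity. The pooled genes were not rerun under the alternatives.

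Other members at an unadjusted p of 0.05 were few. Cyp2r1 had H3K27ac ranks of 88.4, 81.5 and 84.6 in H compared with 0, 62.7 and 0 in C, and of 91.5, 73.3 and 86.6 in HH compared with 70.6 and 65.4 in CC_l. Its difference in obesity was 39.9 (exact permutation p = 0.01, adjusted p = 0.451). Cyp17a1 had H3K27ac ranks of 70.4, 81.4 and 81.4 in C and 0 in H, and of 82.7 and 74.3 in CC_l and 0, 0 and 77.5 in HH, with a difference of -65.2 (exact permutation p = 0.015). With windows of 1000 bp the Cyp17a1 difference was 0. Cyp4f13 had a difference of 28.3 for H3K27ac after weight loss (exact permutation p = 0.02), Cyp2u1 of 9.26 for H3K4me3 (exact permutation p = 0.045), and Cyp1b1 of -17.9 for H3K4me3 in obesity (exact permutation p = 0.0333). At Cyp4f13, 1 of 2 CCC libraries had an H3K27ac peak, and the H3K27ac list of CCC replicate 3 was short. Cyp20a1 and Cyp2j6 had H3K27ac differences in obesity of -18.3 (exact permutation p = 0.01) and -30.7 (exact permutation p = 0.03), and Cyp20a1 stood at 3.08 with equal numbers of peaks per library. For H3K27me3, Cyp4x1 and Cyp2s1 had differences of -26.7 and -26.3 in obesity (exact permutation p = 0.0333 for each), and Cyp26a1 of -2.71 after weight loss (exact permutation p = 0.035). At Cyp4x1 and Cyp2s1 a peak was present in 1 of 2 H and 2 of 2 HH libraries. Over the alternatives the difference ranged from -48.7 to -4.66 at Cyp4x1 and from -48.2 to -4.44 at Cyp2s1. It stayed under an unadjusted p of 0.05 in 5 and 4 of 15.

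The counts of members are given beside the shares over all promoters. Of 29 members tested for H3K4me3 in obesity, 0 were higher and 3 lower at an unadjusted p of 0.05, compared with 2.74% and 5.72% of 15167 promoters, and after weight loss 1 and 2 of 32 compared with 4.07% and 3.39%. For H3K27me3 they were 1 and 3 of 31 in obesity, compared with 1.81% and 5.07%, and 0 and 2 of 46 after weight loss, compared with 2.25% and 3.83%. For H3K27ac they were 1 and 4 of 26, compared with 2.96% and 5.87%, and 1 and 1 of 27, compared with 2.96% and 1.3%. For H3K4me1 they were 1 and 0 of 28, compared with 2.51% and 1.93%, and 0 and 0 of 29, compared with 1.38% and 0.955%. The median rank difference of the members was -0.636 in obesity for H3K4me3, where that of all tested promoters was -1.81, and -3.79 for H3K27ac, where that of all was -3.25. After weight loss it was 5.94 for H3K4me3 (0.755 for all) and 8.99 for H3K27ac (9.31 for all).

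Last, presence was compared without ranks. A promoter was gained when marked in every diet library and no control library, and lost when the reverse held. For H3K4me3, H against C had 0 members gained (0.00458% of all promoters) and 1 lost, Cyp26b1 (1.71%). HC against CC_s had 0 gained (0.32%) and 2 lost, Cyp2e1 and Cyp2f2, where only 4 of all promoters were lost (0.0183%). Both peaks ranked low among marked promoters in CC_s, and that of Cyp2f2 lay upstream of the start. HH against CC_l had 3 gained, Cyp4b1, Cyp4f18 and Cyp2ab1 (1.32%), and 0 lost (0.481%). HHC against CCC had 2 gained, Cyp2s1 and Cyp2ab1 (1.39%), and 1 lost, Cyp17a1 (0.375%).

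For H3K27me3, H against C had 1 gained, Cyp1a1 (1.29%), and 2 lost, Cyp26c1 and Cyp11b2 (1.61%), the latter with ranks of 87.1, 90.3 and 88.3 in C. HHC against CCC also had Cyp1a1 gained (1.37%) and Cyp26c1 lost (0.732%). No member was gained or lost in HC against CC_s (0.165% and 0.828% of all promoters) or in HH against CC_l (1.05% and 0.943%). For H3K27ac, H against C had 0 gained (0.146%) and 2 lost, Cyp2e1 and Cyp17a1 (1.94%). HHC against CCC had 2 gained, Cyp4b1 and Cyp39a1 (2.32%), and 0 lost (0.0686%), while no member was gained or lost in HC against CC_s (0.297% and 0.499%) or HH against CC_l (0.448% and 0.403%). The short H3K27ac list of CCC replicate 3 makes a gain easier and a loss harder to call in HHC against CCC.

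For H3K4me1, HH against CC_l had 4 gained, Cyp4f18, Cyp27b1, Cyp4f16 and Cyp1b1 (2%), and 1 lost, Cyp4f14 (0.705%), which was named after its values were seen. HHC against CCC had 2 gained, Cyp4f18 and Cyp4f16 (3.98%), and 0 lost (0.494%). No member was gained or lost in H against C (0.59% and 0.32%) or HC against CC_s (0.215% and 0.101%). With groups of 2 or 3 libraries, 1 library decides such a call. The counts of gained or lost members moved by more than 1.5 times, or to or from 0, in 34 of the 84 repeats that left 1 library out.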

How the data were processed

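H3K4me3, H3K27me3, H3K27ac and H3K4me1 were measured by CUT&Tag in 84 libraries of pulled-down adipocyte nuclei. The authors, per the submitters' processing notes and the methods, trimmed reads with Trim Galore 0.6.6, aligned them to GRCm38 with Bowtie2 2.4.4, made coverage tracks with SAMtools 1.13 and bedtools 2.30, and called peaks per library with SEACR 1.3 (stringent mode, threshold 0.01). The deposited signal is the unscaled total and highest coverage of each peak. It is not comparable between libraries, so only ranks by highest coverage within a library were compared. Read counts, which the model in the study needs, are not in these lists. Groups followed sample titles. No blacklist was applied here.

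Overlaps, ranks, exact permutation tests within cohorts and Benjamini-Hochberg adjustment were computed with Python 3.11.15, numpy 2.4.6, scipy 1.17.1 and pandas 2.3.3, and tested on simulated data. Promoters came from the GENCODE basic annotation, motif and CpG shares from the GRCm38.p6 genome, and printed sequences from RefSeq, whose table matched 76 of 99 members. Members, gene lists and tests were chosen with earlier results of these data known. Named were Cyp2e1, members with H3K4me3 or H3K27me3 in at least 50% of the controls, members gained or lost for H3K4me3, H3K27me3 or H3K27ac, and the 5 genes most like Cyp2e1. Members named for a rank difference at an unadjusted p of 0.05 or for an H3K4me1 call only, and the examples without a peak, were added after seeing values. Alternatives changed the window, overlap, threshold, number of peaks, ranking, grouping and libraries. Correlations of same-numbered libraries between groups ranged from -0.234 to 0.145 and were over 0.1 in 2 of 36 pairs. Numbers were therefore not used as pairs in the main test, though such correlations cannot exclude a shared preparation.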

Additional observations from a re-analysis of the deposited data

Results flagged for a closer look

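The difference between obese and control mice itself differed between the cohorts for H3K4me3 at 2 members, out of 119 tests over 18 genes, by an exact permutation test with unadjusted p. At Cyp20a1 the obese difference was -20.6 in the 12-week and 3.5 in the 25-week cohort, 24.1 apart (exact permutation p = 0.0167). Its rank was 91.3, 94.7 and 93.9 in C, 80.8, 68.1 and 69 in H, 83.9 and 80.1 in CC_l and 86.9 and 84.1 in HH. At Cyp4f17 it was 8.38 in the 12-week and -1.92 in the 25-week cohort, -10.3 apart (exact permutation p = 0.0167), with ranks of 56.4, 56.9 and 58.7 in C, 67.8, 66.4 and 63 in H, 64.3 and 62.8 in CC_l and 62 and 61.3 in HH. This is the smallest p the group sizes allow, and neither would pass adjustment over the 119 tests. The 25-week lists were longer, and the part of list length was not tested.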

How the results depend on the processing

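No member passed the adjusted threshold in any of 84 repeats without 1 library or 54 other alternatives run for that count. For Cyp2e1, the direction and side of an unadjusted p of 0.05 were kept in 50 of 64 repeats without 1 library and in 30 of 42 other alternatives. The exceptions follow. For H3K4me3 in obesity the difference was -18.9 (exact permutation p = 0.217) with groups from the treatment field. With the replicate number as a block, which cannot go below an exact permutation p of 0.0625 to 0.25, it was -36.6 (p = 0.125), after weight loss -50.1 (p = 0.0625), for H3K27ac -76.0 (p = 0.0625) and -55.0 (p = 0.125). For H3K27ac after weight loss it was also -49.9 with equal peak numbers, -52.4 with the stronger 50% of peaks and -56.6 ranked by total signal (exact permutation p = 0.05 for each), -36.1 with libraries having every adipocyte marker (p = 0.0556), and -64.4 to -42.0 without 1 library. For H3K4me1 in obesity it was -59.7 with 200 bp of overlap (exact permutation p = 0.04) and -62.3 to -34.5 without 1 library. After weight loss it turned from 9.06 to -7.17 with 200 bp of overlap, to -4.83 with the block, to -7.13 without HC replicate 1, to -4.83 without HHC replicate 2 and to -12.0 without CCC replicate 1. Over all repeats without 1 library it ranged from -12.0 to 30.1, and with equal peak numbers it was 30.7. Cyp20a1 H3K27ac in obesity turned to 3.08 with equal peak numbers. The causes were not tested.

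The counts of gained or lost members moved as follows. H3K4me3 in H (1) became 2 with a window of 1000 bp, with equal peak numbers or with every adipocyte marker, and 1 to 4 without 1 library. HC (2) became 1 with the window or equal numbers. HH (3) became 1 with the treatment field. HHC (3) became 1 with equal numbers or the stronger 50%, and 3 to 5 without 1 library. H3K27me3 in H (3) became 1 with the stronger 50% and 3 to 6 without 1 library, HC (0) 0 to 2, HH (0) 1 with equal numbers and 2 to 6, and HHC (2) 3 to 5. H3K27ac in H (2) became 1 with 200 bp of overlap and 2 to 4, HC (0) 1 with the stronger 50% and 0 to 2, HH (0) 1 with the window or equal numbers, 2 with every adipocyte marker and 0 to 2, and HHC (2) 1 with equal numbers, 0 with the stronger 50% and 2 to 7. H3K4me1 in H (0) became 0 to 3, HC (0) 0 to 1, HH (5) 0 with equal numbers or the stronger 50% and 5 to 9, and HHC (2) 2 to 5. Fewer libraries make the call easier by construction.

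H3K4me3 in at least 50% of the controls held for 18 members, for 13 with equal peak numbers (without Cyp7b1, Cyp26b1, Cyp2f2, Cyp4f16 and Cyp39a1), for 16 with the stronger 50% (without Cyp7b1 and Cyp26b1) and for 13 when every control was required. Of the other members' differences, 91 of 165 repeats without 1 library and 63 of 109 other alternatives kept their side of an exact permutation p of 0.05. Fewer libraries raise the smallest p. The number of libraries limits all tests, and peak lists do not show weak marks.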
